A study of Homo sapiens with 6 samples.

Results

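The solute carriers are the largest group of membrane proteins that move small molecules across cell membranes, and 130 of their genes were followed here in a brain-seeking breast cancer cell line in which SPANXB1 was silenced. Members were chosen by gene symbol (SLC, a family number, the letter A and a member number), without the mitochondrial SLC25 family, and by a mean of at least 1 FPKM over the 6 samples. FPKM (fragments per kilobase, scaled to sequencing depth) is a level per transcript length, and it served for choosing the members and for setting genes side by side. Of 16570 genes in the table, 292 had such a symbol and 245 remained without SLC25. The level left 130 members, while 115 genes lay below 1 FPKM. Just inside the limit were SLC26A11 with a mean of 1.03, SLC40A1 with 1.06, SLC47A1 with 1.33 and SLC15A3 with 1.49 FPKM, and just outside were SLC27A5 with 0.992 and SLC26A7 with 0.962 FPKM. The symbol also took in 5 genes that are not transporters (SLC9A3R1, SLC9A3R2, SLC2A4RG, SLC7A6OS and SLC4A1AP), so 125 members are transporters by name, and it left out carriers with another letter, such as the SLC35B and SLCO genes.

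The cells are 231-BR, a variant of the triple-negative breast cancer line MDA-MB-231 selected for metastasis to the brain and written BR. BR-shCON cells (n = 3) carried a control vector, and BR-shSPANXB1 cells (n = 3) carried a lentiviral short hairpin RNA against SPANXB1, a cancer-testis gene of the X chromosome. Per the study's methods, stable lines were selected with puromycin after infection and the parental BR cells were kept in medium with G418, and the labels give DMEM with fetal bovine serum for both groups. The methods state for the study's experiments in general that replicates used different batches of cells. The labels do not tie the 3 sequenced samples of a group to separate cultures or infections, so p-values measure only the spread between these samples, which may be technical. The protocol for RNA extraction in the labels names 231-BR and MDA-MB-231 cells rather than the silenced cells.

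Most carriers of this superfamily work without hydrolysing ATP. Some let a solute run down its own gradient, as the glucose transporters of the SLC2 family do, some couple uptake to sodium or proton gradients built by ion pumps, and some exchange one solute for another. Cancer cells are known for high glucose and glutamine uptake and for lactate export, which use SLC2A1, SLC1A5 and SLC16A3. Large neutral amino acids enter through SLC7A5 bound to the heavy chain SLC3A2, and the SLC39 and SLC30 families move zinc in opposite directions.

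Estimated counts per sample summed to between 16294462 and 16666167. SPANXB1 itself was at 445, 563 and 515 FPKM in BR-shCON and at 232, 260 and 248 FPKM in BR-shSPANXB1, so the groups did not overlap and transcript remained in every silenced sample. Its log2 fold change from counts was -1.11 ± 0.05 (SE, edgeR adjusted p = 1.8e-14), although SPANX genes have near-identical copies that can share reads. The cell identity was checked on marker genes. VIM, AXL and CD44, which mark mesenchymal basal-like lines, had means of 2263, 286 and 202 FPKM, but SPARC from the same list had 0.345. The hormone receptor genes ESR1 and PGR had means of 0.72 and 0.0783 FPKM, whereas the keratins KRT8 and KRT18 reached 193 and 267 FPKM. Of 7 measured markers of endothelium, leukocytes and neural cells, PECAM1 had a mean of 1.05 FPKM and the other 6 had means between 0.00667 and 0.287.

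Promoters to show were picked among changed members of the sugar, lactate and amino acid results that follow. SLC37A2 and SLC2A3 were also picked but had no promoter entry, and the other 4, which all rose, are shown here. Each line gives the 250 bases before the RefSeq start site on the gene's own strand, 5′ to 3′, in GRCh38.p14, with matches to the searched motifs in capitals. SLC2A1 lies at chr1:42958869-42959118 on the minus strand, SLC16A3 at chr17:82228185-82228434 on the plus strand, SLC1A4 at chr2:64988229-64988478 on the plus strand and SLC6A9 at chr1:44031463-44031712 on the minus strand.
SLC2A1: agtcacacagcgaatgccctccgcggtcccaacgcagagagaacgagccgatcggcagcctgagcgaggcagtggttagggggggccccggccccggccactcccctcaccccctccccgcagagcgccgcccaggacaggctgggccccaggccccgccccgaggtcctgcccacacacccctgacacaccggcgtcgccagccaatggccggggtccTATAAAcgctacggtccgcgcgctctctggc
SLC16A3: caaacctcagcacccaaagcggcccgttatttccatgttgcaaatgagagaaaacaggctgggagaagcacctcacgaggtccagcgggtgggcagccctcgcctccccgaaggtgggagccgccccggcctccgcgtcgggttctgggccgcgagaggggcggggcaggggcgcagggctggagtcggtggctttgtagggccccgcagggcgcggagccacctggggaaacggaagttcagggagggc
SLC1A4: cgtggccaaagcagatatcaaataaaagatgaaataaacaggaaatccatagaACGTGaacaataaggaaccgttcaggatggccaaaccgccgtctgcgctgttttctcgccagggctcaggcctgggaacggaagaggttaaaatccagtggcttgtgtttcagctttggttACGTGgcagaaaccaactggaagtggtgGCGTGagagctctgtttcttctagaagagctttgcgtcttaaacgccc
SLC6A9: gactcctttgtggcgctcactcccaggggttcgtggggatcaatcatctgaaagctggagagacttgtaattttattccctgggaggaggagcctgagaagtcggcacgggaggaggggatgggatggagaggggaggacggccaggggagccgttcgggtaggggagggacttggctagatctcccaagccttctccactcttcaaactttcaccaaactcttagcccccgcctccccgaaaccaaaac

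The motifs searched on both strands were the hypoxia response core (ACGTG or GCGTG), the amino acid response core (TGATGNAA), the TATA box (TATAAA) and the NF-kB consensus. A TATA box begins 31 bases before the start of SLC2A1. SLC1A4 holds the hypoxia core at 3 places, beginning 197, 76 and 48 bases before its start, and the windows of SLC16A3 and SLC6A9 hold none of the 4 motifs. Of the 130 members, 101 had a promoter in the table. The hypoxia core occurred in 59 of them (58.4%), against 58.7% of tested genes and 43.1% of all 27305 promoters. The TATA box occurred in 5 members (4.95%), against 5.09% of tested genes and 11.1% of all promoters. The NF-kB consensus was found in 8 members (7.92%), against 5.92% and 5.05%, and the amino acid response core in 1 member, SLC1A3 (0.990%), against 1.33% and 3.19%. A match is a run of letters and was not tested as a binding site.

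Silencing of SPANXB1 went with changes in 28 of the 130 members, and the changes were small. Of these, 18 were higher and 10 lower in BR-shSPANXB1 at an adjusted p under 0.05, and 102 were not called. The call rests on edgeR's quasi-likelihood test on estimated counts over 11439 genes with a mean of at least 1 FPKM, with Benjamini-Hochberg adjustment over all of them. Among all tested genes 13.8% were called, 6.82% higher and 6.98% lower, against 21.5% of the members. The median size of the 28 changes was 0.26 on the log2 scale, or 19.8%. Over all 130 members the median log2 fold change was 0.011, and over all tested genes it was 0.00023. By the thresholds of the study (absolute log2 fold change over 0.59, adjusted p under 0.05 and a BR-shCON mean over 1 FPKM), 3 members were past all of them, SLC15A3, SLC37A2 and SLC47A1, against 0.621% of tested genes.

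The FPKM values give the same comparison without a model. In 45 of 130 members the values of the groups did not overlap, against 28.6% of tested genes. Of the 45, the silenced samples were higher in 32 and lower in 13. The 28.6% is not split by direction, so whether tested genes lean the same way was not tested. For a single gene with 3 samples against 3, an exact permutation test cannot give a two-sided p below 0.1. Among the 28 changed members, 24 had no overlap, and the exceptions were SLC1A3, SLC39A13, SLC29A2 and SLC5A3. These members were called on the same samples, which favours groups that are apart, so the 24 are no separate support for the calls. Same-numbered samples of the groups deviated together, and with the replicate number as a block the count rose to 48 members, 31 higher and 17 lower, against 25.7% of tested genes. All 28 members kept their call in that fit. The 25.7% likewise counts calls in either direction, here and below, so splits with the block have no comparison by direction. Without replicate 2 of BR-shSPANXB1 the count was 17 members, 11 higher and 6 lower, and DESeq2 called 18 of the 28. No share of tested genes is given for these fits.

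**Figure D1:**
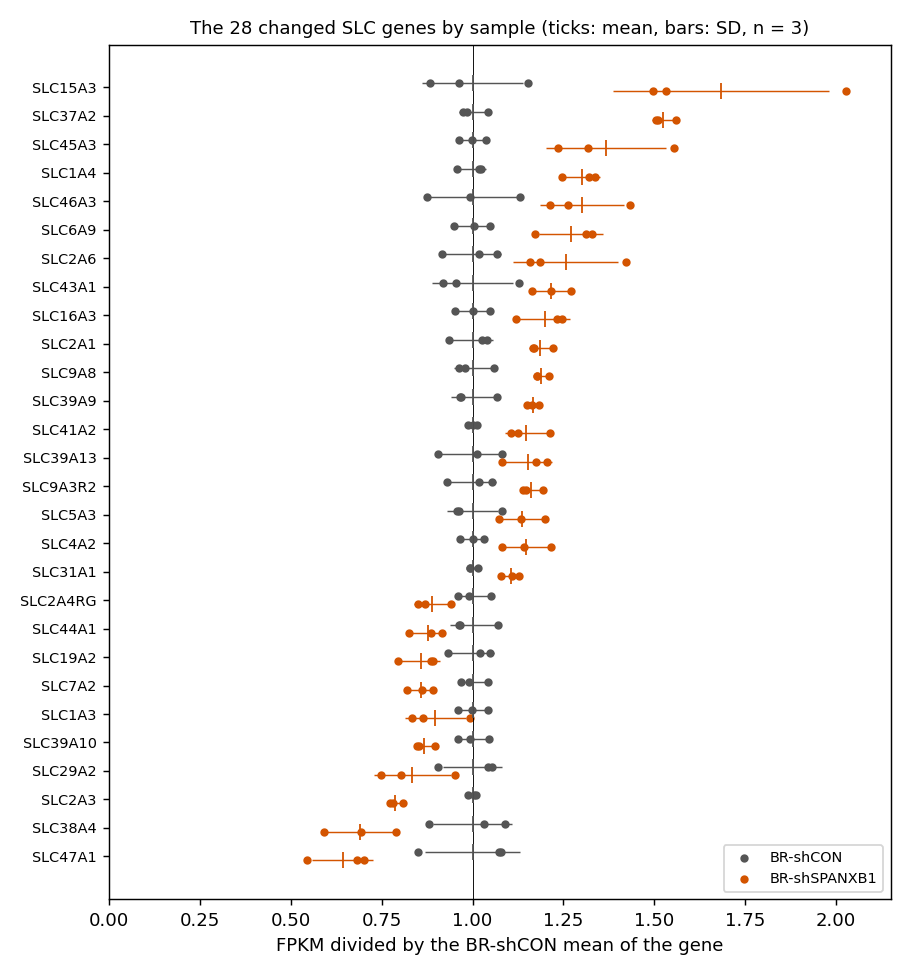
FPKM of each of the 28 changed members in each sample (points), divided by the gene's BR-shCON mean (x axis), with the group mean as a tick and the SD as a bar (n = 3). The silenced samples sit to the right of 1 for 18 members, most of all SLC15A3 and SLC37A2, and to the left for 10, and in 24 of 28 the groups are separate. The members shown were called on these same samples.

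Sugar transporters held the highest share of changed members among the 5 substrate classes named in the choice of genes. It was 6 of 13 (46.2%), with 5 higher and 1 lower, against 13.8% of tested genes. With the block 7 were called, 6 higher and 1 lower, against 25.7%. SLC37A2, a sugar phosphate exchanger of the endoplasmic reticulum, was at 24.6, 26.0 and 24.3 FPKM in BR-shCON and at 38.9, 37.5 and 37.6 FPKM in BR-shSPANXB1. Every silenced sample was higher than every control sample, with a gap of over 10 FPKM between them. Its log2 fold change was 0.59 ± 0.04 (SE), a 1.51-fold rise, and its edgeR adjusted p of 3.4e-11 was the smallest of all members. The gene lies at chr11:125063067-125090312 on the plus strand (GENCODE on GRCh38), and its fold sits at the edge of the 0.59 threshold, with a 95% interval from 0.51 to 0.68.

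The main glucose carriers moved in opposite directions. SLC2A1, the widely expressed glucose transporter GLUT1 whose promoter is printed above, was at 74.1, 73.2 and 66.8 FPKM in BR-shCON and at 87.1, 83.2 and 83.5 FPKM in BR-shSPANXB1, a log2 fold change of 0.23 ± 0.04 (SE, edgeR adjusted p = 2.6e-04). SLC2A3, the high-affinity glucose transporter GLUT3 known from neurons, was at 14.01, 14.33 and 14.24 FPKM in BR-shCON and at 11.09, 10.97 and 11.46 FPKM in BR-shSPANXB1, a log2 fold change of -0.36 ± 0.05 (SE, edgeR adjusted p = 2.4e-05). In neither gene did the groups overlap, and both calls held in every fit that left out a sample. SLC2A14, a near-identical copy of SLC2A3 that can share its reads, was listed at 0 FPKM in all samples but 1, where it was at 0.05. Per transcript length SLC2A1 stood at 5.03 times the level of SLC2A3 in BR-shCON and at 7.57 times in BR-shSPANXB1.

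Further sugar carriers rose by less certain amounts. SLC45A3 (prostein) was at 2.83, 2.73 and 2.94 FPKM in BR-shCON and at 3.50, 4.40 and 3.73 FPKM in BR-shSPANXB1, with a log2 fold change of 0.44 ± 0.10 (SE, edgeR adjusted p = 0.0042). SLC2A6, a glucose transporter of the lysosome, went from 6.09 ± 0.47 to 7.64 ± 0.88 FPKM (SD, n = 3, log2 fold change 0.32, edgeR adjusted p = 0.020), and SLC5A3, a sodium-coupled carrier of myo-inositol, from 15.3 ± 1.06 to 17.4 ± 0.976 FPKM (log2 fold change 0.17, edgeR adjusted p = 0.014). SLC37A4, the glucose 6-phosphate carrier of the endoplasmic reticulum, was not called, with 27.99 ± 0.627 and 27.2 ± 0.187 FPKM. The call of SLC2A6 was lost in DESeq2 (adjusted p = 0.075), those of SLC2A6 and SLC5A3 in both limma fits on FPKM, and those of SLC45A3, SLC2A6 and SLC5A3 without a single sample, with edgeR adjusted p up to 0.057, 0.15 and 0.10. Summed over the 13 members, sugar carriers were at 213 ± 3.86 FPKM in BR-shCON and at 239 ± 4.12 FPKM in BR-shSPANXB1.

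**Figure D2:**
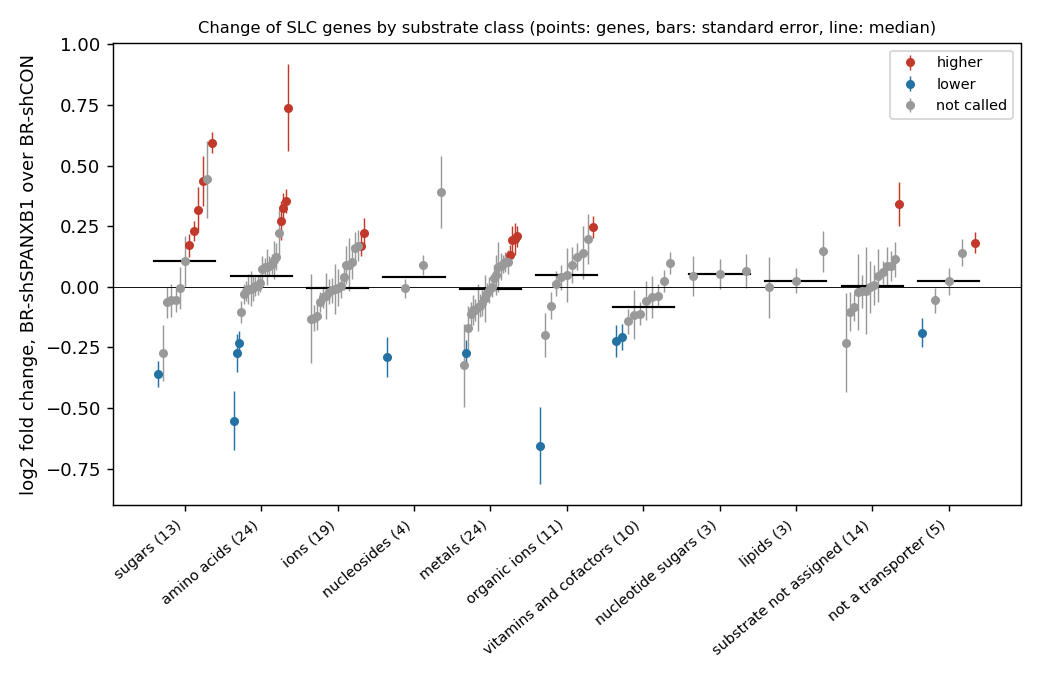
Log2 fold change, silenced over control samples (y axis), for each member (points, with standard errors as bars), grouped by substrate class along the x axis with the number of members in brackets and a line at the class median. Sugar carriers have 5 of 13 members called higher and 1 called lower, against 6.82% and 6.98% of tested genes. The 3 nucleotide sugar carriers and the 3 lipid carriers have no called member.

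Among 24 carriers of amino acids and peptides, 4 rose and 3 fell, a share of 29.2% against 13.8% of tested genes. The changed genes were not the most abundant ones. SLC1A4, the sodium-dependent exchanger ASCT1 of small neutral amino acids such as serine, was at 14.9, 14.8 and 13.9 FPKM in BR-shCON and at 19.2, 19.5 and 18.1 FPKM in BR-shSPANXB1. The groups were apart by more than 3 FPKM, and the log2 fold change was 0.35 ± 0.05 (SE, edgeR adjusted p = 1.3e-05). SLC6A9, the glycine transporter GlyT1, was at 10.4, 9.84 and 10.9 FPKM in BR-shCON and at 13.8, 13.6 and 12.2 FPKM in BR-shSPANXB1, a log2 fold change of 0.32 ± 0.06 (SE, edgeR adjusted p = 7.4e-04). Both genes kept their calls in every fit that left out a sample, and their promoters above share none of the searched motifs.

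SLC15A3, a proton-coupled lysosomal carrier of histidine and peptides, had the highest fold of all members but few counts. It was at 0.98, 1.07 and 1.28 FPKM in BR-shCON and at 1.66, 2.25 and 1.70 FPKM in BR-shSPANXB1, from 36 to 47 counts against 60 to 83. The log2 fold change was 0.74 ± 0.18 (SE, edgeR adjusted p = 0.0051), and without replicate 2 of BR-shSPANXB1 the call was lost (adjusted p = 0.060). SLC43A1, a sodium-independent carrier of large neutral amino acids, rose from 7.62 ± 0.849 to 9.27 ± 0.41 FPKM (SD, n = 3, log2 fold change 0.27, edgeR adjusted p = 0.023).

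Lower in the silenced cells were carriers of cationic, small neutral and acidic amino acids. SLC38A4, a sodium-coupled carrier of small neutral amino acids, was at 2.60, 2.22 and 2.75 FPKM in BR-shCON and at 1.49, 1.75 and 1.99 FPKM in BR-shSPANXB1, a log2 fold change of -0.55 ± 0.12 (SE, edgeR adjusted p = 0.0023). SLC7A2, which takes up arginine and lysine, was at 8.24, 8.42 and 8.86 FPKM against 7.33, 6.96 and 7.58 FPKM, a log2 fold change of -0.23 ± 0.05 (SE, edgeR adjusted p = 0.0026). For these a gap remained between the groups, whereas the groups of SLC1A3, the glutamate and aspartate carrier EAAT1, overlapped at 7.91, 8.22 and 8.60 FPKM against 7.12, 6.88 and 8.19 FPKM. The log2 fold change of SLC1A3 was -0.27 from counts (edgeR adjusted p = 0.017) but -0.16 from mean FPKM, and the reason for this gap was not tested. Calls of SLC1A3 and SLC43A1 were lost in DESeq2 (adjusted p = 0.071 and 0.088), in limma on FPKM and without a single sample (edgeR adjusted p up to 0.10 and 0.11), and that of SLC7A2 in limma alone (adjusted p = 0.057).

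The most abundant amino acid carriers differed by under 10% and were not called. With the replicate block 3 of the 5 above 100 FPKM were called, SLC38A2, SLC3A2 and SLC7A5. SLC38A2, which takes up glutamine and other small neutral amino acids, was at 212, 213 and 214 FPKM in BR-shCON and at 225, 221 and 235 FPKM in BR-shSPANXB1 (log2 fold change 0.08, edgeR adjusted p = 0.16), and with the replicate block the adjusted p was 0.0065. SLC3A2, the heavy chain that SLC7A5 and SLC7A11 share, was at 254, 272 and 256 FPKM against 272, 296 and 273 FPKM (log2 fold change 0.09, edgeR adjusted p = 0.18, and 0.0060 with the block). The partners of SLC3A2 were looked at after their values were seen. Its light chain SLC7A5 was at 207 ± 9.46 and 224 ± 8.26 FPKM (edgeR adjusted p = 0.12, and 0.0018 with the block), and the cystine carrier SLC7A11 at 25.4 ± 1.47 and 24.0 ± 1.07 FPKM (edgeR adjusted p = 0.13, and 0.0020 with the block). SLC1A5, the main glutamine exchanger ASCT2, was at 246 ± 6.55 and 247 ± 3.76 FPKM, and the 95% interval of its log2 fold change ran from -0.07 to 0.08 (edgeR adjusted p = 0.95, and 0.89 with the block). SLC38A1, also a glutamine carrier and named here because it is the remaining one above 100 FPKM, was at 115 ± 2.65 and 117 ± 4.52 FPKM (edgeR adjusted p = 0.98, and 0.97 with the block). With the block 12 of the 24 members were called, 8 higher and 4 lower, against 25.7% of tested genes. Summed over the class, the level was 1312 ± 10.5 FPKM in BR-shCON and 1377 ± 16.5 FPKM in BR-shSPANXB1.

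**Figure D3:**
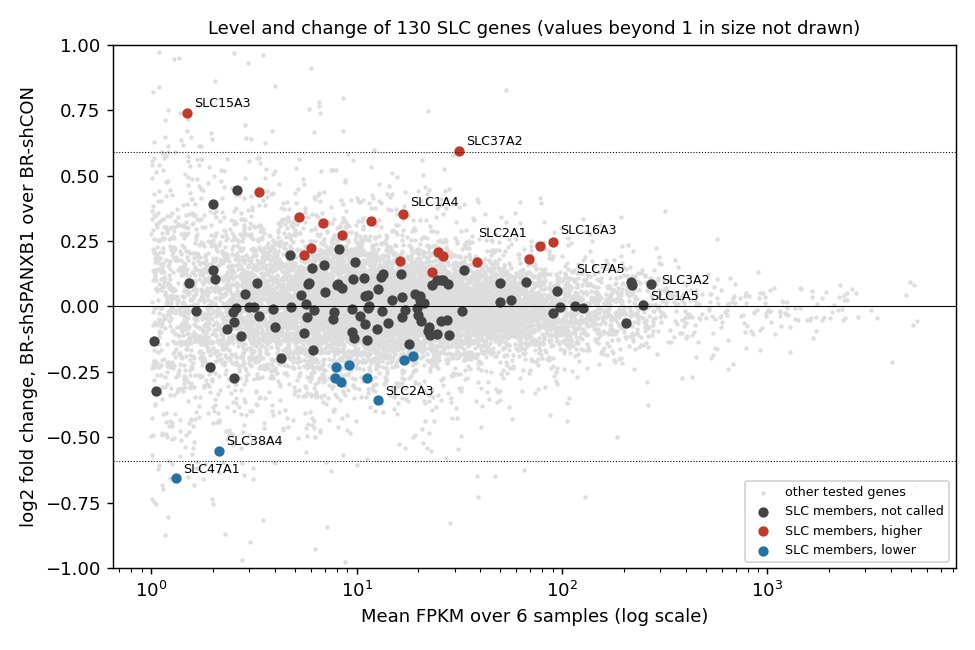
Log2 fold change, silenced over control samples (y axis), against the mean FPKM over 6 samples (log x axis) for 130 members and, in light grey, the other tested genes, with dotted lines at the 0.59 threshold of the study. Members above 100 FPKM, such as SLC3A2, SLC1A5 and SLC7A5, lie near 0, and SLC15A3 and SLC47A1 past the dotted lines have mean levels of 1.49 and 1.33 FPKM.

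Of 19 carriers of inorganic ions, 2 rose and none fell in edgeR, a share of 10.5% against 13.8% of tested genes, and 7 were called with the block, 4 higher and 3 lower, against 25.7%. At an unadjusted p under 0.05, 2 were lower in edgeR, and neither DESeq2 nor limma called a lower one. SLC4A2, the chloride and bicarbonate exchanger AE2, was at 36.1, 37.2 and 34.8 FPKM in BR-shCON and at 41.1, 43.9 and 38.9 FPKM in BR-shSPANXB1, a log2 fold change of 0.17 ± 0.04 (SE, edgeR adjusted p = 0.0077). SLC9A8, a sodium and proton exchanger of the Golgi, was at 5.37, 5.80 and 5.28 FPKM against 6.63, 6.45 and 6.46 FPKM, a log2 fold change of 0.22 ± 0.06 (SE, edgeR adjusted p = 0.015). In both the groups were apart. SLC20A1, a sodium-coupled phosphate carrier and the most abundant of the class, was at 208 ± 8.92 and 201 ± 5.85 FPKM (edgeR adjusted p = 0.34, and 0.046 with the block), and SLC4A7, a sodium bicarbonate carrier, at 16.8 ± 0.98 and 16.5 ± 0.765 FPKM. Without replicate 2 of BR-shSPANXB1 neither SLC4A2 (adjusted p = 0.074) nor any other carrier of the class was called, and SLC9A8 had an adjusted p of 0.057 in DESeq2 and up to 0.068 without a sample.

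Of 4 nucleoside and nucleobase carriers, the equilibrative transporter SLC29A2 fell. Its values were 9.65, 9.55 and 8.30 FPKM in BR-shCON and 8.72, 6.85 and 7.36 FPKM in BR-shSPANXB1, which overlap through replicate 3 of BR-shCON and replicate 1 of BR-shSPANXB1, and the log2 fold change was -0.29 ± 0.08 (SE, edgeR adjusted p = 0.017). Its relative SLC29A1 was at 46.9, 48.2 and 48.6 FPKM against 51.7, 51.8 and 51.2 FPKM, without overlap but also without a call (log2 fold change 0.09, edgeR adjusted p = 0.17, and 0.049 with the block). SLC43A3, a purine nucleobase carrier and the most abundant of the class, was at 126 ± 4.05 and 127 ± 4.64 FPKM. SLC29A3, named here because it is the remaining member, was at 1.70, 1.69 and 1.75 FPKM against 2.40, 2.24 and 2.22 FPKM, without overlap. Its log2 fold change of 0.39 was the largest of the class but was not called in edgeR (adjusted p = 0.077, and 0.053 with the block). Both limma fits called it (adjusted p = 0.034 and 0.033), and it had 56 to 57 counts against 72 to 77. The call of SLC29A2 was lost in DESeq2 (adjusted p = 0.059), in limma (adjusted p = 0.12) and without a single sample (edgeR adjusted p up to 0.11).

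Of 24 metal carriers 4 rose and 1 fell, a share of 20.8% against 13.8% of tested genes. SLC39A10 fell, and SLC39A9, SLC39A13, SLC31A1 and SLC41A2 rose. The SLC39 zinc carriers among them belong to the family with the most members in the class. SLC39A10, a zinc importer of the plasma membrane, was at 11.9, 11.5 and 12.5 FPKM in BR-shCON and at 10.2, 10.2 and 10.8 FPKM in BR-shSPANXB1, a log2 fold change of -0.27 ± 0.05 (SE, edgeR adjusted p = 7.8e-04). SLC39A9, which is found mainly in the Golgi, was at 22.3, 22.2 and 24.6 FPKM against 26.5, 26.8 and 27.3 FPKM, a log2 fold change of 0.21 ± 0.04 (SE, edgeR adjusted p = 0.0013). The groups were apart in both genes, which kept their calls in every fit that left out a sample, although SLC39A10 missed the threshold in limma (adjusted p = 0.052). SLC39A9 shares 373 exon bases (5.23% of its own) with ERH on the opposite strand, and ERH had a mean of 366 FPKM. No strand-marking step is described, so reads in that stretch cannot be told apart, and their share was not tested. SLC39A13, an intracellular zinc carrier, went from 24.3 ± 2.16 to 28.1 ± 1.58 FPKM (SD, n = 3, edgeR adjusted p = 0.032). The copper importer SLC31A1 was at 21.9, 21.8 and 22.4 FPKM against 24.4, 23.7 and 24.8 FPKM (log2 fold change 0.13, edgeR adjusted p = 0.034), and the magnesium carrier SLC41A2 went from 5.18 ± 0.0603 to 5.95 ± 0.299 FPKM (log2 fold change 0.20, edgeR adjusted p = 0.043).

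The abundant zinc carriers were not called. SLC39A14, which also carries iron and manganese, was at 64.8, 62.8 and 64.5 FPKM in BR-shCON and at 70.0, 67.5 and 69.6 FPKM in BR-shSPANXB1 (log2 fold change 0.10, edgeR adjusted p = 0.093, and 0.0033 with the block). SLC39A1, a plasma membrane importer, was at 90.3 ± 0.962 and 89.8 ± 2.27 FPKM and SLC39A7, which releases zinc from the endoplasmic reticulum, at 97.6 ± 3.10 and 98.8 ± 2.12 FPKM. Calls of SLC39A13, SLC31A1 and SLC41A2 were lost in DESeq2 (adjusted p = 0.083, 0.081 and 0.15), in limma and without single samples, for SLC41A2 without any of the 6. With the block 9 of the 24 metal carriers were called, 7 higher and 2 lower, against 25.7% of tested genes.

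The lactate exporter SLC16A3 (MCT4) showed the clearest rise among 11 carriers of organic ions, 2 of which changed (18.2%, against 13.8% of tested genes). It was at 82.3, 86.1 and 78.2 FPKM in BR-shCON and at 102, 101 and 91.9 FPKM in BR-shSPANXB1. Every silenced sample was above every control sample, and the log2 fold change was 0.25 ± 0.04 (SE, edgeR adjusted p = 2.4e-04), close to the 0.23 of SLC2A1. SLC16A3 shares 482 exon bases (5.36% of its own) with CSNK1D on the opposite strand, which had a mean of 45.8 FPKM. The share of reads from that stretch was not tested. Other called members share exon bases too, such as SLC4A2 with CDK5 (4.36%) and SLC5A3 with MRPS6 (2.36%). SLC47A1, the proton-coupled exporter MATE1 of organic cations, was at 1.37, 1.74 and 1.73 FPKM in BR-shCON and at 0.88, 1.13 and 1.10 FPKM in BR-shSPANXB1, from 68 to 86 counts against 43 to 56. Its log2 fold change of -0.66 ± 0.16 (SE, edgeR adjusted p = 0.0055) was the lowest of all members, and the call held without any single sample. The urea carrier SLC14A1 and the vesicular nucleotide carrier SLC17A9 were at 20.0 ± 1.65 and 21.0 ± 0.796 FPKM in BR-shCON and were not called.

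Vitamin and cofactor carriers had 2 lower members of 10 and none higher in edgeR, a share of 20.0% against 13.8% of tested genes. At an unadjusted p under 0.05, 1 was higher in edgeR, and DESeq2 and limma called 0 higher. SLC44A1, which takes up choline, was at 17.5, 17.5 and 19.4 FPKM in BR-shCON and at 15.0, 16.1 and 16.6 FPKM in BR-shSPANXB1, a log2 fold change of -0.21 ± 0.05 (SE, edgeR adjusted p = 0.0075). SLC19A2, the thiamine carrier, was at 10.1, 9.18 and 10.3 FPKM against 8.79, 7.83 and 8.71 FPKM, a log2 fold change of -0.22 ± 0.07 (SE, edgeR adjusted p = 0.022). Both had groups that did not overlap. SLC5A6, the sodium-dependent carrier of biotin and pantothenate, was at 23.4 ± 0.531 and 21.95 ± 0.222 FPKM (edgeR adjusted p = 0.12, and 0.038 with the block), SLC44A2, a relative of SLC44A1, at 25.3 ± 1.00 and 27.5 ± 0.771 FPKM (edgeR adjusted p = 0.16, and 0.043 with the block), and the riboflavin carrier SLC52A2 at 55.1 ± 3.06 and 57.4 ± 0.415 FPKM. The call of SLC19A2 was lost in DESeq2 (adjusted p = 0.078), in limma (adjusted p = 0.082) and without single samples (edgeR adjusted p up to 0.13), and that of SLC44A1 in limma alone (adjusted p = 0.085). With the block 5 of the 10 were called, 1 higher and 4 lower, against 25.7% of tested genes.

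Members of the remaining groups gave few calls. The 3 nucleotide sugar carriers SLC35A1, SLC35A2 and SLC35A3, which feed the Golgi, had log2 fold changes from 0.04 to 0.06, and the fatty acid carriers SLC27A1, SLC27A3 and SLC27A4 had values from -0.0023 to 0.15. None of these was called by edgeR, DESeq2 or limma, and 0 had an unadjusted p under 0.05. Of 14 members with no assigned substrate 1 was called, a share of 7.14% against 13.8% of tested genes. This was SLC46A3, a lysosomal membrane protein, at 5.14, 3.98 and 4.52 FPKM in BR-shCON and at 5.74, 6.51 and 5.51 FPKM in BR-shSPANXB1. Its log2 fold change was 0.34 ± 0.09 (SE, edgeR adjusted p = 0.012), and its call was lost without a single sample (adjusted p up to 0.090) and in limma with a pseudocount of 0.1. SLC35A4 of the same group ran from 75.6 to 108 FPKM within BR-shCON while its counts ran only from 1386 to 1520. SLC10A3 and SLC66A2 were at 12.5 ± 0.765 and 13.4 ± 1.23 FPKM in BR-shCON and were not called.

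Among the 5 members that are not transporters, SLC9A3R2, a scaffold that anchors transporters at the membrane, was at 67.3, 65.2 and 59.4 FPKM in BR-shCON and at 76.3, 73.4 and 72.9 FPKM in BR-shSPANXB1, a log2 fold change of 0.18 ± 0.05 (SE, edgeR adjusted p = 0.0059). The related scaffold SLC9A3R1 was at 33.74, 30.51 and 29.95 FPKM against 34.4, 36.7 and 33.9 FPKM, just without overlap (edgeR adjusted p = 0.092, and 0.015 with the block). SLC2A4RG, a transcription factor named for the SLC2A4 gene it regulates, went from 20.0 ± 0.905 to 17.8 ± 0.951 FPKM (edgeR adjusted p = 0.032, lost in DESeq2 with 0.099 and in limma). SLC7A6OS was not called, and it shares 3371 exon bases with SLC7A6 on the opposite strand. Since no strand-marking step is described, reads of this pair cannot be told apart.

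Added together, the members took a slightly larger share of the transcriptome in the silenced cells. Their summed level was 3399, 3418 and 3372 FPKM in BR-shCON and 3546, 3573 and 3529 FPKM in BR-shSPANXB1. In CPM, counts scaled to library size, the sum went from 11103 ± 77.8 to 11510 ± 38.0 (SD, n = 3). The largest contributions to that difference were 65.8 CPM from SLC7A5, 62.3 from SLC38A2, 47.6 from SLC37A2, 40.3 from SLC2A1 and 37.1 from SLC16A3, and the largest opposite ones were -22.5 from SLC20A1 and -15.0 from SLC7A11. Of these, SLC7A5, SLC38A2, SLC20A1 and SLC7A11 were not called in the main edgeR fit (adjusted p = 0.12, 0.16, 0.34 and 0.13), though with the block they were. In bulk RNA, fewer cells of a kind and less RNA per cell cannot be told apart.

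**Figure D4:**
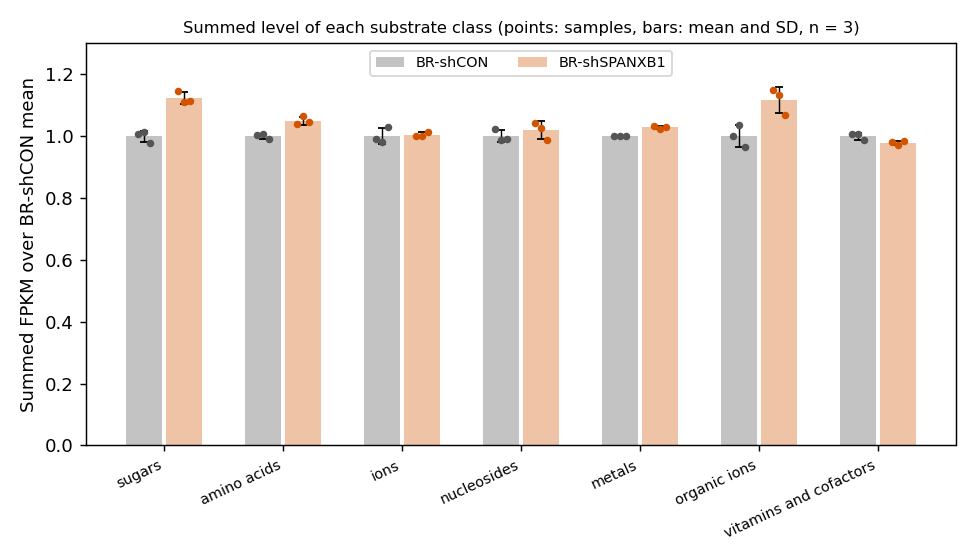
Summed FPKM of the members of 7 substrate classes in each sample (points), divided by the BR-shCON mean of the class (y axis), with bars for the group mean and error bars for the SD (n = 3). Sums for sugars (213 to 239 FPKM), amino acids (1312 to 1377 FPKM), metals (603 to 620 FPKM) and organic ions (161 to 180 FPKM) are higher in all silenced samples, the sum for vitamins and cofactors (173 to 169 FPKM) is lower in all of them, and those for ions and nucleosides overlap.

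Genes that work with the carriers were described from a list of 52, of which 35 were tested, and 3 rose and 10 fell, against 6.82% and 6.98% of tested genes. TXNIP and ARRDC4, arrestin-family proteins that hold back glucose uptake, were both higher, with log2 fold changes of 0.18 and 0.41 (edgeR adjusted p = 0.0019 and 0.0030). Of the chaperones that bring monocarboxylate carriers to the surface, EMB was at 13.7, 13.1 and 13.6 FPKM in BR-shCON and at 8.71, 8.64 and 9.82 FPKM in BR-shSPANXB1 (log2 fold change -0.58, edgeR adjusted p = 3.8e-08), and NPTN had a log2 fold change of -0.29 (edgeR adjusted p = 2.4e-04). BSG, the chaperone of SLC16A3 and singled out after its values were seen, was at 388 ± 15.9 and 415 ± 20.5 FPKM (edgeR adjusted p = 0.22, and 0.0092 with the block).

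The beta subunits ATP1B1 and ATP1B3 of the sodium pump, which builds the gradient that sodium-coupled carriers use, were lower. ATP1B1 was at 149, 135 and 141 FPKM in BR-shCON and at 124, 116 and 125 FPKM in BR-shSPANXB1 (log2 fold change -0.23, edgeR adjusted p = 3.4e-04), and ATP1B3 had a log2 fold change of -0.17 (edgeR adjusted p = 0.0040). Of 10 tested enzymes that act first on imported solutes, GCLM of glutathione synthesis was higher (log2 fold change 0.22, edgeR adjusted p = 0.0033), and HK2 and LDHB were lower (-0.14 and -0.13, edgeR adjusted p = 0.015 and 0.032). Of 9 tested genes of metal handling, the ferritin light chain FTL, the metallothionein MT1X and the Golgi manganese carrier TMEM165 were lower (-0.21, -0.38 and -0.16, edgeR adjusted p = 7.5e-04, 1.7e-04 and 0.012). None of the 5 genes of the amino acid response list was called by edgeR, DESeq2 or limma, although 2 had an unadjusted edgeR p under 0.05, 1 in each direction, and 3 were called with the block, 2 higher and 1 lower. The calls of HK2, LDHB and TMEM165 were lost without single samples, with edgeR adjusted p up to 0.091, 0.14 and 0.056.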

How the data were processed

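RNA of 3 BR-shCON and 3 BR-shSPANXB1 samples was sequenced as paired 100-base reads from poly(A)-selected libraries. GRCh38.p12, Bowtie2 2.2.5 and HISAT2 2.0.4 are listed in the submitters' processing notes. For the counting program and annotation the sources used here give no name. The authors deposited estimated counts, FPKM and TPM per gene and sample. TPM and the authors' group columns were not used. Of the deposited counts 14.5% were not whole, and all were rounded. Genes with a mean of at least 1 FPKM over 6 samples were tested with edgeR 4.0.16 (R 4.3.3, TMM, robust quasi-likelihood fit) and called at a Benjamini-Hochberg adjusted p under 0.05. Standard errors are the absolute log2 fold change divided by the square root of the F statistic. The procedure was tested on simulated data. Alternatives were a replicate block, RLE and upper quartile scaling, DESeq2 1.42.0, limma 3.58.1 on log2(FPKM + 0.1) and log2(FPKM + 1), no filter, a 5 FPKM filter, and leaving out each sample. Same-numbered samples deviated together from the means of their groups (correlations of 0.106, 0.155 and 0.154), and the block fit is given for that reason. The main fit used no block, and the labels give the numbers without saying what equal ones mark.

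Members and gene lists, substrate classes included, were chosen with earlier results of these data known. Named genes are members past the thresholds of the study, the 12 changed members with the largest absolute fold, and in each class the 3 most abundant and up to 4 changed per direction by adjusted p, plus changed partner genes, of which 1 is not reported here. Gene positions are from GENCODE v29 and promoters from RefSeq. Intervals cover these samples only.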

Additional observations from a re-analysis of the deposited data

How the results depend on the processing

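The 28 changed members became 48 with the replicate block, 18 in DESeq2, 16 and 17 in limma with pseudocounts of 0.1 and 1, and 17 to 25 without single samples. For DESeq2, limma and the fits without single samples, the share of all tested genes called is not given here. Whether members lost calls more often than other genes therefore cannot be read from these counts. The 18 higher members became 31 with the block and 11 to 16 without single samples, and the 10 lower ones 17 with the block, 6 in DESeq2, 4 in both limma fits and 6 to 10 without single samples. These are the totals of each fit and can include members not called in the main fit. In limma they include SLC29A3, which was higher, and 1 lower carrier of vitamins and cofactors. Leaving out replicate 2 of BR-shSPANXB1 gave the fewest calls (17, with 11 higher and 6 lower). The cause was not tested beyond the smaller number of samples. The 3 members past the thresholds of the study became 1 with the 5 FPKM filter, which leaves SLC15A3 and SLC47A1 untested, 0 in limma with a pseudocount of 1, and 1 to 4 without single samples, with 1 in the fit without replicate 1 of BR-shSPANXB1. No named changed member turned its direction under any alternative, while 18 of the 28 lost their call in at least 1 of them (78 values, while 310 kept their side of the threshold). Apart from the calls gained that are given beside the results, the block changed no call of a named member. Directions turned for 10 named genes that were not called. With upper quartile scaling SLC27A3 was at 0.0038 and SLC39A7 at 0.0042. With the 5 FPKM filter SLC39A7 was at 0.00052. In limma with pseudocounts of 0.1 and 1, SLC27A3 was at 0.0050 and 0.0044, SLC39A7 at 0.0174 and 0.0172, SLC43A3 at 0.0095 and 0.0094, and SLC66A2 at 0.0020 and 0.0016. Without single samples, log2 fold changes ran from -0.013 to 0.042 for SLC17A9, -0.018 to 0.023 for SLC1A5, -0.047 to 0.075 for SLC27A3, -0.00094 to 0.057 for SLC27A4, -0.024 to 0.096 for SLC35A1, -0.018 to 0.023 for SLC39A7, -0.027 to 0.021 for SLC43A3, -0.0805 to 0.0048 for SLC4A7, -0.0066 to 0.064 for SLC52A2 and -0.093 to 0.036 for SLC66A2. Members near 1 FPKM rest on under 100 counts per sample, which limits their precision.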

Other observations

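The 115 solute carrier genes below 1 FPKM on average were tested in a fit with no filter on low values, over 16545 genes of which 11.1% were called. None of them was called higher in BR-shSPANXB1 by edgeR, where 2 had an unadjusted p under 0.05, and 1 was called lower, SLC9A2, a sodium and proton exchanger. It was at 0.32, 0.41 and 0.64 FPKM in BR-shCON and at 0.39, 0.28 and 0.22 FPKM in BR-shSPANXB1, so the groups overlapped (edgeR adjusted p = 0.049).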
